A study of Moesziomyces aphidis with 9 samples.

Results

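The introns described here were found by the paired-end library alone: splice junctions with at least 5 reads in the list of that library and absent from the other 10 junction lists of the series. An intron was identified by its scaffold, first base, last base and strand, and its reads are the count of reads that span it. Members were thus chosen by their reads in 1 list and their absence from the others. By this rule 1240 of the 4618 introns with at least 5 paired-end reads were found only by paired-end reads, which is 26.9% (95% exact binomial interval 25.6% to 28.2%). The other 3378 were listed in at least 1 more library and serve as the comparison below, as the other paired-end introns. The paired-end list held 7393 introns in all, and the 11 lists together held 13012. Their reads are therefore given as a description with no test. The word intron stands here for a junction in the deposited lists, and whether each one was spliced out of an RNA was not tested.

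Introns are removed from precursor RNA by the spliceosome, which cuts at a donor site at the 5′ end of the intron and joins the exons at an acceptor site at its 3′ end. Introns of yeast-like basidiomycete fungi such as smuts are mostly short, and the use of a second donor or acceptor near the first is a common form of alternative splicing. An aligner finds an intron only from reads that cross it, and the bases a read holds on either side of the junction, its overhangs, limit how surely the ends can be placed.

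Moesziomyces aphidis, formerly Pseudozyma aphidis, is a basidiomycete that secretes mannosylerythritol lipids, and the series asked how its transcripts differ between carbon sources. Cells of strain DSM70725 were kept for 114 h at 30 °C either with 40 g/l glucose and 70 g/l soybean oil (labelled induced, filaments) or with 40 g/l glucose alone (labelled not induced, blastospores), so that medium and cell form changed together. Each medium had 3 unstranded libraries with single reads of 50 bp and 1 stranded library of replicate 1 with 2 junction lists. The paired-end library had 95 bp reads and is labelled as soybean oil replicate 2. Nothing in the labels says that replicates were separate cultures, so the p-values below measure the spread between these samples.

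The paired-end library held 2532134 junction reads, the 3 soybean oil libraries 173636 to 224962 and the 3 glucose libraries 163851 to 192243. The paired-end library did not follow the 50 bp soybean oil libraries at all introns. In the 6 main lists, edgeR's quasi-likelihood test called 492 of 2270 introns (21.7%) at an adjusted p under 0.05, 222 higher with soybean oil (9.78%) and 270 lower (11.9%). The number called was 316, 304, 304 and 285 without soybean oil replicate 1 or 3 or glucose replicate 1 or 2. Among introns listed in all 6, the paired-end reads were a median of 9.09 times the soybean oil mean at 108 introns called at least 2-fold higher with oil, 25 times at 174 called at least 2-fold lower and 12.8 times at 1636 that were not called. Against the glucose mean, the same medians were 29.1, 9.47 and 14.3. Set against the introns that were not called, the paired-end library therefore lay above the soybean oil level and below the glucose level at introns lower with oil. The groups were called on the same libraries that form the ratios, and the cause was not tested. Whether its label is right was not tested. The paired-end library has no replicate, and read length, pairing, depth and library cannot be told apart in what follows.

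Most introns found only by paired-end reads had few reads. Their median was 11 reads (quartiles 7 and 25, highest 6503), against 290 (100.25 and 677 quartiles) for the other paired-end introns. Together they carried 59651 reads, 2.36% of the paired-end junction reads. The same rule applied to each of the 6 main lists found 37 to 68 introns in that list alone, 1.45% to 2.63% of its introns with at least 5 reads. Of those found in a main list alone, 83.7% to 100% were over 1000 nt long. The main lists are shallower, and each was also checked against the deeper paired-end list. Their shares are therefore not on the same scale as the 26.9% above. At the threshold, 166 introns found only by paired-end reads had 5 reads, with a median length of 210 nt. Just outside it, 241 introns in no other list had 4 reads, with a median length of 137 nt.

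The share of paired-end introns that no other list held fell with the number of reads, and in a different way for short and long introns. Among introns of up to 1000 nt it was 74.7% at 5 to 6 reads (195 of 261), 58.1% at 10 to 19 reads, 43.5% at 20 to 49 reads and 16.3% at 50 to 99 reads. From 100 to under 1000 reads it was 1.57% (31 of 1980), and from 1000 reads 1.59% (9 of 567). Among introns over 1000 nt it was 100% at 5 to 6 reads (110 of 110), 90.5% at 50 to 99 reads and 46.4% at 100 to under 1000 reads (26 of 56). From 1000 reads it was 20% (1 of 5, interval 0.505% to 71.6%). Nearly all short introns with at least 100 reads were thus listed elsewhere, while 26 of 56 long ones with 100 to under 1000 reads were not.

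**Figure D1:**
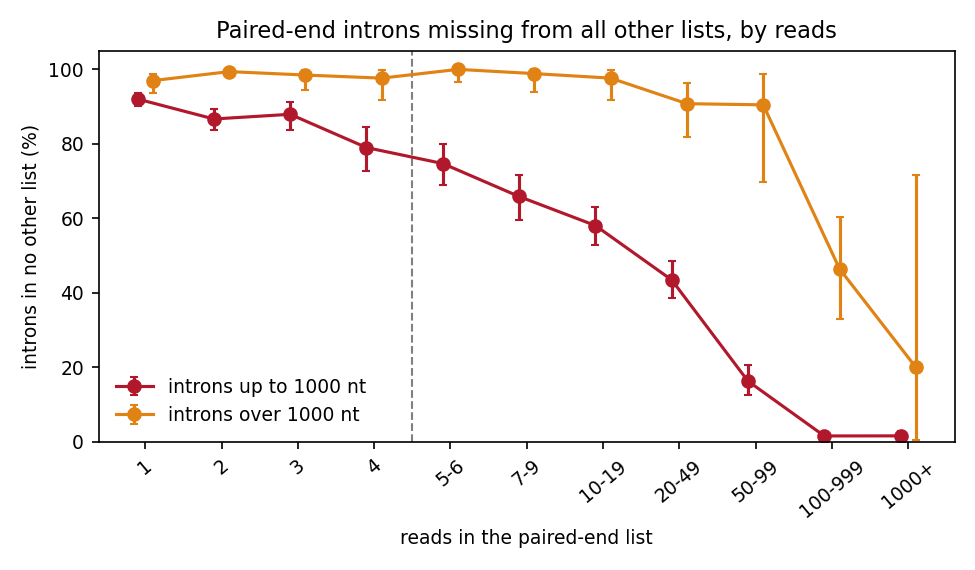
Share of paired-end introns listed in no other library (vertical axis, percent) by reads in the paired-end list (horizontal axis, unequal bins), for introns up to 1000 nt (red) and over 1000 nt (orange). Bars are 95% exact binomial intervals, and introns right of the dashed line meet the minimum of 5 reads. The red points fall from 74.7% at 5 to 6 reads to 1.59% at 1000 reads or more.

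Depth alone can be put on a scale with the 50 bp library labelled with the same replicate, over which the paired-end library had 11.3 times the junction reads. Per intron the ratio had a median of 11.4 (quartiles 8.0 and 16.8) over 2283 introns of all 6 main lists. Divided by the ratio of the totals, 84 of the 845 short and 38 of the 395 long introns found only by paired-end reads would still have at least 5 reads. They made up 2.95% of the short and 51.4% of the long paired-end introns with as many scaled reads. At that level 94.6% of the other short introns were listed in the 50 bp library of replicate 2. These others were chosen for being listed in at least 1 more library, so this percent is raised by the choice. It is no estimate for the introns found only by paired-end reads. At least 20 scaled reads remained for 17 short and 8 long introns. Counting intervals here and below cover counting error only, since reads without molecular identifiers are not independent molecules.

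Long junctions were far more frequent than among the other paired-end introns. Of the introns found only by paired-end reads, 845 (68.1%) had up to 1000 nt and 395 (31.9%) more than 1000 nt, against 98.6% and 1.36% of the others. Put the other way, 20.2% of the short and 89.6% of the long paired-end introns were in no other list. The short ones had a median of 90 nt (quartiles 75 and 110) and the long ones of 176279 nt (quartiles 66518.5 and 312102), up to 499666 nt. The plus strand held 643 of the 1240 (51.9%), against 49.2% of the others. Scaffolds differed, with 207 on Seq17 and 178 on Seq2, and shares of the paired-end introns of each of the 24 scaffolds with any from 15.0% on Seq3 to 45.9% on Seq7.

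One length stood out among the short introns. A length of exactly 55 nt was found in 74 of the 845 (8.76%, interval 6.94% to 10.9%), against 2 of the 3332 other short introns (0.0600%, interval 0.00727% to 0.217%). Only 5 had 54 nt and 2 had 56 nt. At any number of reads the paired-end list held 245 introns of 55 nt, of which 3 were listed elsewhere, and the other lists held 0 to 3 each. The 74 lay on 18 scaffolds in 53 loci, 36 plus and 38 minus, and none shared a donor or acceptor with a listed intron. Their reads were few, with a median of 7 and 67 of the 74 under 20 reads, yet the reads reached far to both sides. Both overhangs were at least 90 nt in 60 of the 74 (81.1%), against 69 of the 771 other short introns found only by paired-end reads (8.95%). Of the 7 with at least 20 reads, 5 had 21 to 88, and the other two were Seq17:1381871-1381925 with 1907 and Seq6:289648-289702 with 1018, both on the minus strand. The next most frequent length was 103 nt, with 31 introns (3.67%) against 20 of the others (0.60%).

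**Figure D2:**
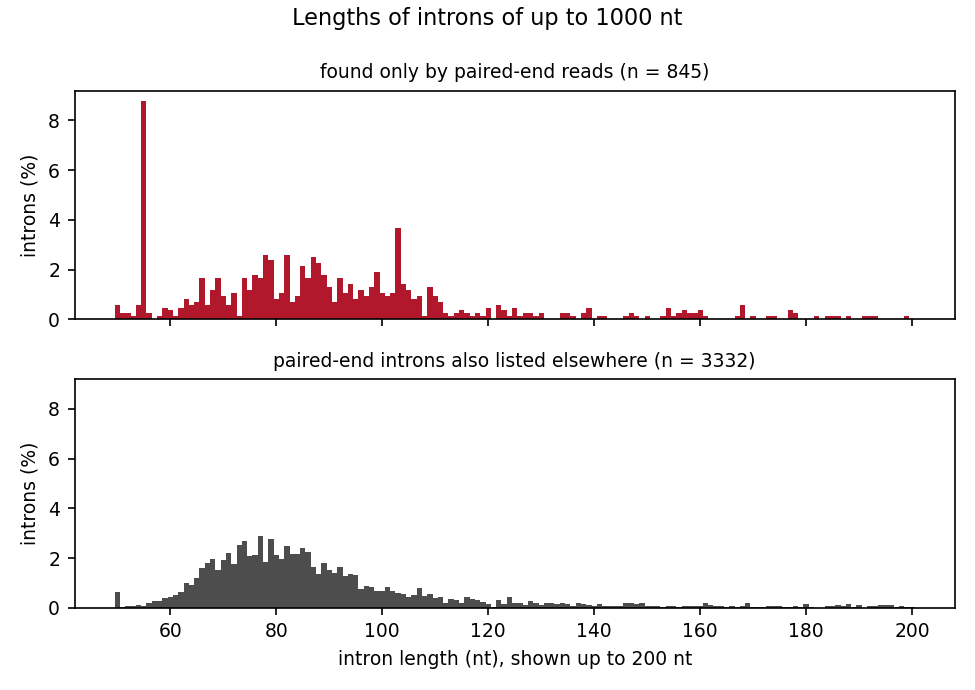
Lengths of introns of up to 1000 nt in steps of 1 nt (horizontal axis, shown to 200 nt) as a percent of each group (vertical axis), for the 845 introns found only by paired-end reads (upper panel) and the 3332 other paired-end introns (lower panel). The upper panel has a single bar of 8.76% at 55 nt, where the lower panel has 0.0600%.

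The overhangs of the long introns were mostly short on 1 side. The list gives, for each side of a junction, the longest stretch of bases that any of its reads aligned there, up to 94 nt in the paired-end list and 49 nt in the 50 bp lists. The smaller of both had a median of 16 nt in the long introns found only by paired-end reads, 54 nt in the short ones and 90 nt in the other short introns. It was at most 20 nt in 313 of the 395 long (79.2%) and in 69 of the 845 short introns (8.17%), against 10 of the 3332 other short introns (0.300%). More reads give more chances for a long overhang, so introns with 20 to 49 reads were also set side by side. There the sum of both overhangs had a median of 107 nt in 69 long introns and 119 nt in 117 short ones with no listed intron within 1000 nt, against 176 nt in 225 other short introns. In the same range the median was 154 nt in 11 introns with a listed donor and 173 nt in 6 with a listed acceptor. At 5 to 9 reads the short introns did not stand apart in this way, with 153.5 nt in 160 with no listed intron within 1000 nt and 157 nt in 151 other short introns, while 197 long ones had 106 nt. Reads of 95 bp that all cross a junction at 1 place give a sum of 95 nt.

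**Figure D3:**
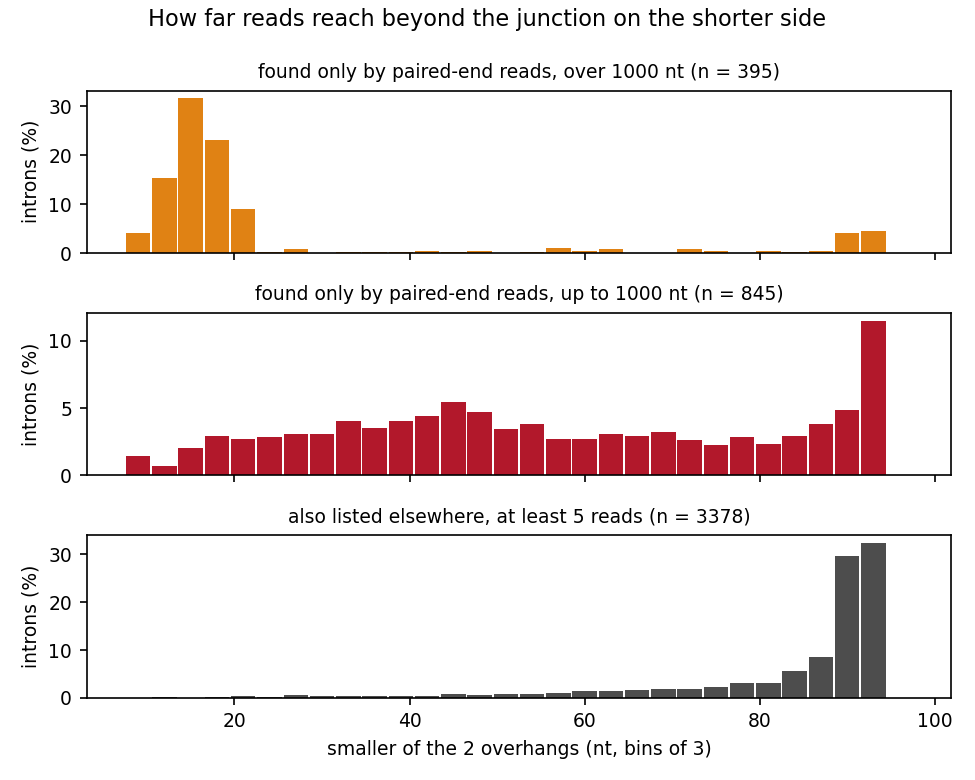
Smaller of the 2 overhangs (horizontal axis, nt, bins of 3) as a percent of each group (vertical axis) for long (upper) and short (middle) introns found only by paired-end reads and for the other paired-end introns (lower). In the upper panel 79.2% of introns lie at 20 nt or less, and the lower panel has its peak at the right end.

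Many of these entries were not separate from each other. In 97 groups, 238 of the 1240 introns (19.2%) had the same outer ends of their overhangs and the same length as another one, so that only the position of the gap differed, against 25 of the 3378 others (0.740%). Counted once per group, 1099 remained. In 82 of the 97 groups all entries had equal reads, and 48 groups held both strands. The fullest group had 7 entries of 103 nt between Seq7:150414 and Seq7:150585, 4 of them plus and 3 minus, each with 19 reads. By class, 188 of the 422 short introns with no listed intron within 1000 nt were in such groups (44.5%), against 1 of the 144 that used a listed donor (0.694%). Whether such entries rest on the same reads was not tested, and counts of introns below include each entry.

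A wider pattern was that of overlapping introns of equal length on the same strand, which 195 of the 845 short introns showed (23.1%), against 50 of the 3332 others (1.5%). The strongest case lay in Seq18:1448215-1448353 on the minus strand, where 4 introns of 99 nt, each shifted by 9 to 19 nt from the one before, had 795, 71, 1183 and 804 reads. A run of 5 introns of 78 nt in Seq22:429043-429157 on the plus strand, shifted by 6 to 19 nt, had 41, 35, 22, 18 and 23 reads. In these 2 runs the reads of neighbours differed, but in 68 of the 86 runs of this kind all introns had equal reads.

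Short introns also gathered in places. The 845 lay in 577 loci, of which 415 held 1, 108 held 2, 33 held 3 and 21 held at least 4. The fullest was Seq17:2163918-2164481 on the minus strand, with 13 introns of 55 to 168 nt, 5 to 18 reads each and 98 in all, 4 of them 55 nt long. All 13 had overhangs of 93 or 94 nt on both sides, and no listed intron of this strand lay within 1000 nt. On the plus strand the same place held 6 introns found only by paired-end reads, in Seq17:2163962-2164671, with 5 listed introns within 1000 nt. Seq17:2163918-2164073, with 18 reads, was the most read of the 13 on the minus strand, and Seq17:2164229-2164283, with 14 reads and 55 nt, the next. On the plus strand, Seq13:24134-25169 held 11 introns, 6 of them of 55 nt, with 6 to 12 reads each. Seq23:106810-106886 held 8 introns of 3 lengths between 50 and 68 nt. The shortest length of all, 50 nt, was that of 5 introns, of which 3 lay at this place, led by Seq23:106810-106859 with 57 reads. Seq2:1659604-1659653 with 17 reads and Seq7:187033-187082 with 13 reads were the remaining ones.

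By their place against listed introns of up to 1000 nt on the same strand, the 845 short introns fell into 6 classes. With longer listed introns counted too, 219 of the 845 (25.9%) shared a site. Throughout, a listed intron within 1000 nt means one of up to 1000 nt on the same strand. A listed donor with a new acceptor was used by 144 (17%), a listed acceptor with a new donor by 53 (6.27%) and a listed donor and acceptor in a new pairing by 13 (1.54%). A further 56 (6.63%) overlapped a listed intron on the same strand without a shared site, 157 (18.6%) lay within 1000 nt of one, and 422 (49.9%) had none within 1000 nt. Among the other short introns 28.2% had no further listed intron within 1000 nt. With long introns included, 264 of the 1240 (21.3%) shared a donor or acceptor with a listed intron, against 1245 of the 3378 others (36.9%).

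Of the 9 short introns with at least 1000 reads, 5 stood in chains of introns with similar reads, within 19 nt of the next one. This distance is the largest of the 5 gaps and was not set beforehand. In all 5 the overhang facing the next intron was longer than the gap. On Seq21 and Seq23 it was 84 and 67 nt against gaps of 12 and 19 nt. On Seq17 it was 70 and 55 nt against 4 and 15 nt, and on Seq20 21 nt against 16 nt. Whether such reads ran into the next intron or across its junction was not tested. The others of the 9 lay 82 to 153 nt from the nearest listed intron with at least 100 paired-end reads. Reads there could be unlike, as at Seq17:1381871-1381925 with 1907 beside 80285. Seq21:331064-331314 on the minus strand had 4416 reads, and a stretch of 12 nt separated it from Seq21:330938-331051 with 5001 paired-end reads. The introns that follow, Seq21:330568-330844 and Seq21:330373-330550, had 5115 and 5126 reads and were 93 and 17 nt further on. The 4 introns of this chain had 4416 to 5126 paired-end reads. The 50 bp lists held it only in part: Seq21:330938-331051 had 186, 217 and 0 reads in the soybean oil libraries and 0 in each glucose library, and Seq21:330373-330550 had 0 in each soybean oil library and 200, 0 and 0 in the glucose libraries.

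The donor of Seq21:331064-331314 was used in the 50 bp lists with far more distant acceptors. Seq21:326583-331314, of 4732 nt, had 0 reads in the paired-end and in each soybean oil library and 46, 44 and 33 in the glucose libraries (edgeR adjusted p 0.000144). A count of 0 means only that the list did not hold the intron. At Seq21:330938-331051 such a 0 stood beside 186 and 217 reads in the same medium, so this adjusted p may overstate the difference. Seq21:315144-331314, of 16171 nt, had 0 paired-end reads, 42, 0 and 0 in the soybean oil libraries and 74, 65 and 55 in the glucose libraries (edgeR adjusted p 0.132). In the paired-end list, 104 reads joined this donor to an acceptor yet further away, in Seq21:252843-331314 of 78472 nt, which no other list held.

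Other strong introns had the same surroundings. Seq23:55247-55352 on the plus strand, with 1917 reads, came 19 nt before Seq23:55372-55450 with 2448, and Seq23:55510-55586 and Seq23:55648-55727 followed with 2204 and 1815 reads. Its donor was joined in the 50 bp lists to an acceptor 17091 nt on, in Seq23:55247-72337, with 35, 0 and 0 reads in the soybean oil and 0, 0 and 26 in the glucose libraries. The same donor was also listed in Seq23:55247-56044, of 798 nt, with 0 reads in each soybean oil library and 0, 28 and 0 in the glucose libraries. Seq17:442481-442614 on the minus strand, with 1400 reads, was 4 nt from Seq17:442411-442476 with 1437, and its donor appeared in Seq17:427042-442614, of 15573 nt, with 50 reads in soybean oil replicate 2 alone. Seq17:164840-164940 on the minus strand, with 1623 reads, was 15 nt from Seq17:164733-164824 with 1527. Over all short introns found only by paired-end reads, 59 of 845 (6.98%) lay within 25 nt of the nearest intron, against 91 of the 3332 others (2.73%). Within 200 nt the order was reversed, with 30.5% against 45.6%.

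The intron with the most reads of all the short ones had no such chain. Seq5:259600-259662 on the minus strand, of 63 nt, had 4704 reads, which is 418 after scaling to the 50 bp library, and overhangs of 88 and 82 nt. The nearest listed intron, Seq5:259783-259949, was 120 nt away and had 628 paired-end reads. In the main lists it had 0 reads in each soybean oil library and 0, 0 and 59 in the glucose libraries.

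Where a short intron shared 1 site with a listed intron, most of the reads at that site went to the listed one. The 144 with a new acceptor took a median of 1.78% of the paired-end reads at the donor (quartiles 0.707% and 4.57%), 110 of them under 5% and 11 at least 50%. The 53 with a new donor took a median of 1.02% of the reads at the acceptor (quartiles 0.282% and 12.2%), with 10 at least 50%. New acceptors lay mostly downstream, 104 of 144, and 86 of these within 30 nt. Shifts of 3 nt (8 introns), 11 nt (7) and 30 nt (6) were the most frequent, and 38.9% of all acceptor shifts were multiples of 3. New donors lay on both sides, 28 downstream and 25 upstream, most often 4 nt downstream (10 introns), 4 nt upstream (5) or 5 nt upstream (4), and 18.9% were multiples of 3. Some introns of a set share a site, and the shifts were not tested.

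**Figure D4:**
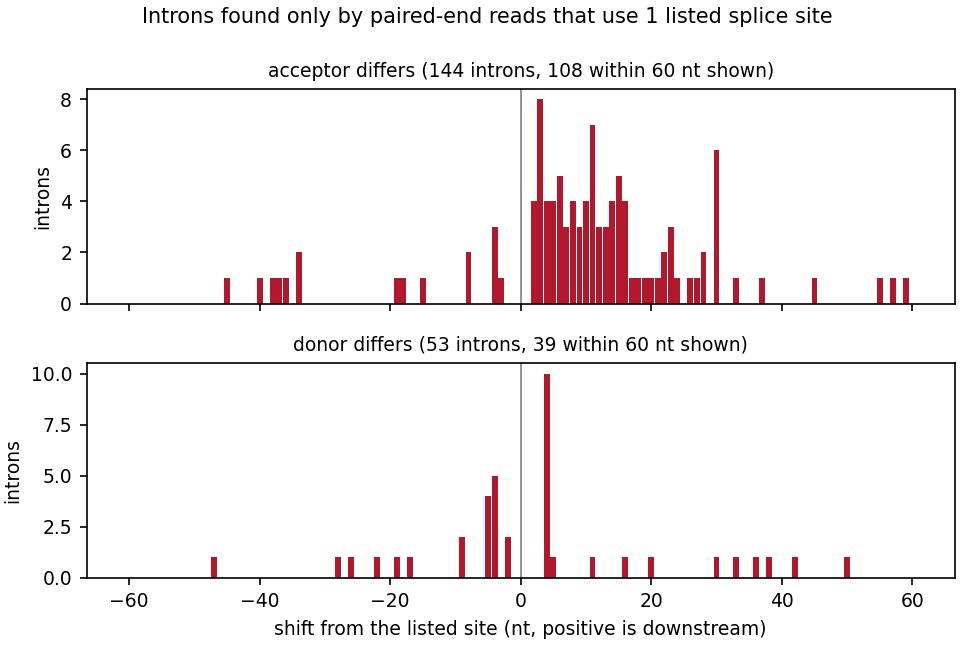
Position of the new acceptor (upper panel, 144 introns) or donor (lower panel, 53 introns) relative to the listed site (horizontal axis, nt, positive is downstream, shown to 60 nt on either side) against the number of introns (vertical axis). Acceptors gather 3 to 30 nt downstream, and donors peak at 4 nt downstream with 10 introns.

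The most-read intron that shared a site with an intron of all 6 main lists used a donor inside that intron. Seq20:115039-115344 on the plus strand had 1620 reads, 47.6% of the 3404 at its acceptor (interval 45.9% to 49.3%), with its donor 50 nt downstream of that of Seq20:114989-115344. That listed intron had 1784 paired-end reads, 91, 112 and 127 in the soybean oil libraries and 90, 85 and 87 in the glucose libraries. A further intron at this place, Seq20:114973-115022 of 50 nt with 1339 paired-end reads, ended 16 nt before the new donor and had 1, 0 and 0 reads in the soybean oil and 7, 0 and 5 in the glucose libraries. Seq20:311646-311899 on the minus strand, with an acceptor 30 nt downstream, had 394 reads, 2.21% of the 17790 at its donor (interval 2.00% to 2.44%). Seq17:25515-25700, with a donor 2 nt upstream of that of Seq17:25515-25698, had 186 reads, 0.622% of the 29889 at its acceptor.

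At the most-read listed introns the new sites were rare. Seq17:537105-537203 on the plus strand had 102517 paired-end reads, and the new acceptors in Seq17:537105-537272 and Seq17:537105-537221, 69 and 18 nt downstream, had 17 and 10 reads. Seq17:1382013-1382091 had 80285 reads, and Seq17:1382013-1382087, with a donor 4 nt downstream, had 5. Seq6:289785-289850 had 17576 reads, Seq6:289785-289854, with a donor 4 nt upstream, 38 and Seq6:289777-289850, with an acceptor 8 nt downstream, 13. Seq20:311676-311895 and Seq14:45691-45791, with donors 4 nt downstream and 19 nt upstream of the listed ones, had 10 reads each, 0.0578% and 0.0606% of the reads at their acceptors.

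A further 11 short introns joined the outer sites of a pair of listed introns and so left out the stretch between them. They had 5 to 106 reads, and the stretch left out was 63 to 309 nt long (median 98), in 5 of the 11 a multiple of 3. The most-read was Seq20:311382-311899 with 106 reads, against 16226 and 17290 for the listed introns on either side of the 75 nt it leaves out. Seq13:25909-26132 followed with 29 reads, against 2788 and 2688. In the weakest surroundings, Seq4:120608-120860 had 11 reads against 171 and 68, or 13.9% of its own reads and those of the weaker listed intron together.

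The 395 long introns were led by one. Seq17:537252-695063 on the plus strand, of 157812 nt, had 6503 reads, 35.0% of the 18589 on all long introns found only by paired-end reads, with overhangs of 48 and 16 nt. Its first base lay 48 nt after the end of Seq17:537105-537203, so the longer overhang equalled the stretch between both. Seq12:106172-143939, of 37768 nt, had 962 reads with overhangs of 18 and 76 nt, and Seq13:24093-287014, of 262922 nt, had 877 with overhangs of 93 and 18 nt, both on the minus strand. All 3 had 1 overhang of at most 18 nt. Over 100000 nt were spanned by 261 of the 395 (66.1%), and 197 (49.9%) had 5 to 9 reads.

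The ends of long introns mostly lay alone. Joined within 200 nt, they formed 612 stretches, of which 541 held a single intron, while 61 of the 395 (15.4%) had an end in the 5 fullest. These were Seq2:1802320-1802900 with 21 introns, Seq17:537015-537411 with 20 and 7704 reads, Seq2:1834580-1834787 with 14, Seq13:24086-24665 with 10, and position Seq9:20339 with 10 at a single base. The fullest locus of short introns on Seq13 and the intron of 55 nt at Seq17:1381871 lay at or near such stretches too, since Seq17:1381855-1381943 held ends of 6 long introns. The longest introns were Seq17:1089437-1589102 with 18 reads, Seq2:1304110-1802900 with 5 and Seq17:38620-537392 with 66, and Seq2:1304110-1802900 and Seq17:38620-537392 each had an end in 1 of the 2 fullest stretches. In Seq17:38620-537392 the overhangs were 91 and 93 nt, unlike the 86 and 17 nt of Seq17:1089437-1589102 and the 15 and 92 nt of Seq2:1304110-1802900.

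The introns themselves have reads in 1 library only, so the media were compared at the listed introns around them. Of the 322 introns of the main lists that shared a site with one found only by paired-end reads, 168 were tested and edgeR called 44 (26.2%), beside the 21.7% of all tested introns. Higher with soybean oil were 22 (13.1% of those tested, beside 9.78%) and lower 22 (13.1%, beside 11.9%). At least 2-fold higher were 16 (9.52%, beside 5.46% of all tested introns) and at least 2-fold lower 12 (7.14%, beside 9.30%). Of 750 listed introns within 1000 nt of a short one, 438 were tested and 110 called (25.1%), 61 higher (13.9%, beside 9.78%) and 49 lower (11.2%, beside 11.9%). The median log2 fold change of soybean oil over glucose was 0.06 for introns with a shared site, 0.09 for those within 1000 nt and -0.01 for all tested. Without soybean oil replicate 1, glucose replicate 1 or glucose replicate 2, the 44 calls were 29, 28 and 27.

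Introns that shared a site took 18.3%, 18.1% and 18.1% of the junction reads in the soybean oil libraries and 16.7%, 16.0% and 17.2% in the glucose libraries. The means were 18.2% ± 0.120 with soybean oil and 16.6% ± 0.581 with glucose (SD, n = 3 each), a difference of 1.53 percentage points with an exact two-sided permutation p of 0.1, the smallest that 3 against 3 allow. Introns within 1000 nt took 38.6% ± 0.157 with soybean oil and 35.5% ± 1.43 with glucose (SD, n = 3 each; exact permutation p 0.1). In both cases the groups did not overlap, but the test cannot pass 0.05 at this size. These introns were found around entries of a soybean oil library, and a library of the other medium with the same depth was not analysed here.

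The listed neighbour of the 55 nt intron Seq6:289648-289702 was the strongest rise with a fitted change among the introns named by rule. Seq6:289785-289850 had 1156, 1371 and 1057 reads in the soybean oil libraries and 19, 14 and 19 in the glucose libraries, a log2 fold change of 5.94 (SE 0.21, edgeR adjusted p 1.37e-06), and 17576 paired-end reads. The neighbour of the other strong 55 nt intron, Seq17:1381871-1381925, went the opposite way. Seq17:1382013-1382091 had 1600, 1591 and 1191 reads with soybean oil and 2731, 1953 and 2617 with glucose (log2 fold change -0.89, SE 0.21, edgeR adjusted p 0.0183). Its 80285 paired-end reads were more than 11.3 times its reads in any of these libraries. Its call was lost without soybean oil replicate 1, 2 or 3 (edgeR adjusted p 0.0563, 0.0603 and 0.105) and without glucose replicate 1 (0.0590).

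Seq17:537105-537203, beside the most-read long intron, had 1453, 1819 and 1162 reads with soybean oil and 3789, 2745 and 2533 with glucose, a log2 fold change of -1.18 (SE 0.18, edgeR adjusted p 0.00243). Seq17:442411-442476, beside the stretch of 4 nt, had 42, 69 and 48 with soybean oil and 92, 75 and 86 with glucose (-0.84, SE 0.19, edgeR adjusted p 0.0158). Both were lower with soybean oil in every library. The second call was lost without soybean oil replicate 1 (edgeR adjusted p 0.0611) or 3 (0.0554).

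At the chain on Seq23 only some of the listed introns were called, each higher with soybean oil. Seq23:55372-55450 had 98, 92 and 73 reads with soybean oil and 67, 44 and 47 with glucose. It was tested but not called (log2 fold change 0.60, SE 0.21, edgeR adjusted p 0.0753). Seq23:55510-55586 had 361, 295 and 291 reads with soybean oil and 214, 191 and 156 with glucose (log2 fold change 0.63, SE 0.18, edgeR adjusted p 0.0404), and Seq23:55648-55727 had 306, 268 and 190 with soybean oil and 170, 134 and 94 with glucose (0.81, SE 0.22, edgeR adjusted p 0.0280). The groups did not overlap at either intron. Neither call held without soybean oil replicate 1 (edgeR adjusted p 0.130 and 0.0840), glucose replicate 1 (0.111 and 0.0566), glucose replicate 2 (0.113 and 0.0989) or glucose replicate 3 (0.0808 and 0.0699). The first was also lost without soybean oil replicate 3 (0.113) and the second without soybean oil replicate 2 (0.0512).

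Seq17:164998-165075, near the stretch of 15 nt, had 12, 23 and 12 reads with soybean oil and 47, 27 and 25 with glucose (log2 fold change -1.22, SE 0.29, edgeR adjusted p 0.0174). Its call was lost without soybean oil replicate 1 (edgeR adjusted p 0.0651) or 3 (0.0745), without glucose replicate 1 (0.0732), and by DESeq2 (adjusted p 0.0538).

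Some places were chosen after their values were seen. On Seq13 the choice was the most-read short intron within 1000 nt of introns that the main lists held with glucose alone. Such introns had at least 10 reads in each glucose library and 0 in each 50 bp soybean oil library. Seq13:790982-791130 and Seq13:791266-791336 met this rule, so their adjusted p below rest on the values that chose them and are no separate support. Seq13:790803-790868 lay at the same chosen place and entered the test only through its glucose reads. Its adjusted p is no separate support either. Seq13:790900-790963 on the minus strand, of 64 nt, had 427 reads and stood 18 nt from Seq13:790982-791130. That neighbour had 547 paired-end reads, 0 in each soybean oil library and 21, 19 and 26 in the glucose libraries (edgeR adjusted p 0.00131). Seq13:791266-791336 had 496 paired-end reads, 0 in each soybean oil library and 22, 15 and 18 in the glucose libraries (edgeR adjusted p 0.00158). Seq13:790803-790868 had 721 paired-end reads, 3, 1 and 0 with soybean oil and 34, 36 and 19 with glucose (log2 fold change -4.48, SE 0.61, edgeR adjusted p 0.00131). At these 3 introns the paired-end reads were also more than 14.3 times the glucose means, which were 22, 18.3 and 29.7. The median ratio to the glucose mean was 14.3 at introns that were not called and 9.47 at those at least 2-fold lower with oil. The paired-end library, labelled soybean oil, had 496 to 721 reads there, where the 50 bp library of the same replicate number had 0 or 1. Seq13:790700-790771, Seq13:790581-790681 and Seq13:790626-790681, which were not tested, had 717, 544 and 147 paired-end reads and 4, 3 and 2 in that library. In the glucose libraries Seq13:790700-790771 had 23, 19 and 0, Seq13:790581-790681 0 in each and Seq13:790626-790681 0, 6 and 0. Not all introns at this place were thus listed with glucose alone. The cause of the gap between the paired-end and the 50 bp soybean oil reads was not tested.

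A similar gap was seen on Seq2, at a listed intron that shares its donor with a strong entry. The listed introns here share a site with a short one of at least 100 reads and were added after their values were seen. Of those added, Seq2:283648-284249 and Seq2:1588384-1588463 were tested but not called (edgeR adjusted p 0.226 and 0.157). Seq13:304775-304855 and Seq13:305023-305113 were also tested and not called (edgeR adjusted p 0.717 and 0.723). Seq2:185040-185127 on the minus strand, with an acceptor 19 nt downstream of that of Seq2:185059-185127, had 102 reads, 1.56% of those at the donor. Seq2:185059-185127 had 6435 paired-end reads, 14, 13 and 6 with soybean oil and 56, 45 and 44 with glucose (log2 fold change -2.28, SE 0.27, edgeR adjusted p 0.000658). Its paired-end reads were also more than 14.3 times its glucose mean of 48.3. The reverse direction was found at Seq2:2040946-2041052 on the minus strand, which had 109 reads, 3.20% of those at its acceptor, with a donor 16 nt downstream of that of Seq2:2040946-2041068. That listed intron had 3301 paired-end reads, 51, 93 and 50 with soybean oil and 2, 0 and 1 with glucose (log2 fold change 5.68, SE 0.46, edgeR adjusted p 8.18e-05). It entered the test only through its soybean oil reads, so this adjusted p is no separate support.

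**Figure D5:**
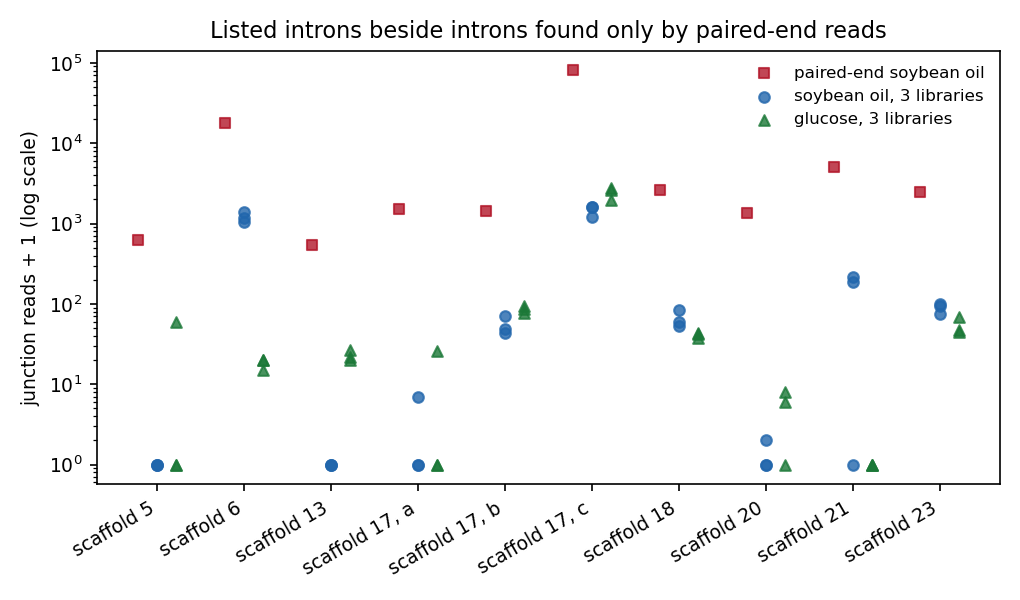
Junction reads plus 1 (vertical axis, log scale) of 10 listed introns next to strong introns found only by paired-end reads (horizontal axis, named by scaffold), in the paired-end soybean oil library (red squares), the 3 soybean oil libraries (blue circles) and the 3 glucose libraries (green triangles). At the scaffold 6 intron soybean oil lies at 1057 to 1371 reads and glucose at 14 to 19, and at the scaffold 13 intron the soybean oil libraries lie at 0 with 547 paired-end reads.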

How the data were processed

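The deposited junction lists give a count of spanning reads for each splice junction in 11 lists of 9 libraries. They were made with TopHat 1.4.1 per the submitters' processing notes, with the genome build and the aligner's settings not given in the sources used here. Gene values in RPKM carry identifiers without positions and were not used here. Intron ends were read from the block sizes, counted from 1. Members and lists were chosen with earlier results of these data known. Named introns were the 12 with the most reads, 10 beside the most-read listed introns of all 6 main lists, the 3 shortest, the 3 longest, those of the fullest locus and the called listed introns beside them. The entry on Seq13 and the introns sharing a site with a short one of at least 100 reads were added after their values were seen. Counts of the 6 main lists were tested with edgeR 4.0.16 in R 4.3.3 (TMM factors, filterByExpr, quasi-likelihood F-test, Benjamini-Hochberg adjustment over 2270 introns), after a test on simulated data. DESeq2 1.42.0, another scaling, no filter, a replicate block and leaving out each library were alternatives. Intervals are exact binomial (Python 3.11.15, scipy 1.17.1). The stranded lists entered no test.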

Additional observations from a re-analysis of the deposited data

How the results depend on the processing

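The number of introns found only by paired-end reads followed the read minimum. It was 684 at 10 reads and 385 at 20 reads, against 1240 at 5. At 10 and 20 reads the median length was 103 and 96 nt, against 107.5, and the median share of site reads was 2.52% and 3.61%, against 1.69%. The share that used a listed site was 17.7% at 20 reads, and 18.1% where both ends within 5 nt counted as listed, against 21.3%. The difference in the percent over 1000 nt was 27.6 percentage points at 10 reads, against 30.5. Matching without strand gave 1240, the 6 main lists alone 1289, the 5 nt tolerance 1172, and counting shared outer ends once, chosen after seeing the data, 1099. Leaving out 1 library at a time gave 285 to 484 called introns, against 492, and 27 to 45 called beside the introns found only by paired-end reads, against 44. Their share of reads differed between media by 1.24 to 1.82 percentage points. DESeq2 gave 361 and 36 calls, the other scaling 488 and 44, and no filter 594 and 53. Replicate numbers did not pair the samples: deviations of same-numbered libraries correlated at -0.06, 0.04 and 0.04, and 1 of 3 correlated best with its own number. The replicate block gave 358 and 33 calls, with edgeR adjusted p 0.0508 for Seq17:164998-165075 and 0.0722 for Seq23:55510-55586. Of 130 values for the 13 named listed introns under these alternatives, 108 kept their side of the threshold and 22 passed it no longer, and none turned its direction.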
